A study of Mus musculus with 21 samples.

Results

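The 10 genes described here are 7 Fgf ligands (*Fgf3*, *Fgf4*, *Fgf5*, *Fgf8*, *Fgf15*, *Fgf17* and *Fgf18*) and 3 inhibitors of Fgf signalling that the pathway induces itself (*Spry2*, *Spry4* and *Dusp6*). They were picked by name out of the 23983 genes of an RNA-seq table with 9 libraries, and none was picked by a threshold on its level. T and Foxa2 ChIP-seq peaks around their gene starts were examined alongside.

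Fgf ligands are secreted proteins that bind receptor tyrosine kinases together with heparan sulfate, and the receptors then signal through Ras and Erk. Erk activity turns on the transcription factors *Etv4* and *Etv5* and the feedback inhibitors, of which Sprouty proteins act above Erk while *Dusp6* removes phosphate from Erk itself. At the caudal end of the vertebrate embryo, *Fgf8* and its close relatives are known for keeping progenitors and presomitic mesoderm undifferentiated.

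The embryonic cells were sorted from pooled mouse embryos made from the F1G4 line of mES cells (C57BL/6N x SV129), all carrying the BAC reporters T::H2B-Venus, Noto::H2B-mCherry and Foxa2::H2B-mTurquoise. Notochord progenitors (NotoPs; T+/Noto+/Foxa2+) and mesodermal progenitors (MPs; T+/Noto-/Foxa2-) came from caudal ends, and trunk notochord (T+/Noto+/Foxa2+) from the trunk, each at E8.5 and E9.5. The study's supplement lists a high Foxa2 gate for trunk notochord and E9.5 NotoPs but not for E8.5 NotoPs, and a high T gate for MPs. It also lists a wider range of somite stages for trunk notochord than for NotoPs. The labels state that the embryos came from tetraploid complementation, whereas the study's text names diploid morula aggregation, in which host cells also contribute to the embryo but carry no reporter. The cultured cells derive from F1G4 mES cells with TRE::Foxa2-IRES-EGFP at Rosa26 and the BACs Noto::H2B-mTurquoise and T::H2B-mCherry-T2A-irTA, so that doxycycline switches on Foxa2 only where T drives the transactivator. Sorted T+/Noto- cells were taken as neuromesodermal progenitors on day 3 (NMPdiff) and as mesodermal progenitors on day 4 (MPdiff), and Noto+/T+ cells as notochord progenitors on day 4 after doxycycline (NotoPdiff). All cultures received bFGF, itself an Fgf ligand, through day 3, and the Wnt pathway agonist CHIR99021 from day 2 to the end.

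Every condition had 1 library, so no difference below has a replicate check and no p-value is given. FPKM values, in which reads are divided by transcript length and library size, hold no depth. By the study's supplementary methods, the E8.5 MP library and both trunk notochord libraries had the fewest de-duplicated reads and the fewest cells of the embryonic set, so their zeros carry the least weight, and no depth is stated there for the cultures. The share of genes listed at 0 lay between 44.7% and 51.7% in 5 embryonic libraries, was 58.1% in E8.5 MPs, which came from the fewest cells, and was 31.6% to 34.4% in the cultures. In embryos, the 6 notochord markers (*T*, *Noto*, *Foxa2*, *Shh*, *Chrd* and *Nog*) summed to 1391 and 1180 FPKM in NotoPs. The sum was 1049 and 1136 FPKM in trunk notochord, and 76.1 and 163 FPKM in MPs. Reporters of *T*, *Noto* and *Foxa2* were used for the sort, so these genes do not test identity apart from it. Outside the sort, *Shh* had 161 and 178 FPKM in NotoPs, 468 and 607 in trunk notochord, and 0 and 0.343 in MPs. In the same order, *Chrd* had 37.1 and 10.6, 6.72 and 0, and 0 and 0.279 FPKM. *Nog* had 75.1 and 37.2, 77.8 and 48.2, and 0 and 1.67 FPKM. In the cultures the 6 markers summed to 421 FPKM in NMPdiff, 592 in NotoPdiff and 29.1 FPKM in MPdiff cells. Most of this sum came from T (406, 375 and 25.8 FPKM). Noto, which is restricted to notochord, was at 0.515, 22.5 and 0 FPKM in the same order. Embryonic and cultured libraries were sequenced on different instruments, so their levels are set side by side without ratios. In sorted pools, fewer cells of a type and less RNA per cell cannot be told apart.

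A gene counted as higher or lower when its ratio of (FPKM + 1) was at least 3-fold (1.58 on the log2 scale), at both stages in the same direction where a comparison spans E8.5 and E9.5. This scale understates changes of weakly expressed genes. All 10 genes were among the 14393 that reached 1 FPKM in at least 1 library. These form the background wherever a percentage of genes higher or lower, or of all genes tested, is given.

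*Fgf8*, the ligand that gives its name to the Fgf8 subfamily, was the most abundant of the 7 ligands in NotoPs and was listed at 0 in trunk notochord. Its level was 52.6 FPKM in E8.5 NotoPs and 54.4 FPKM in E9.5 NotoPs, 0 in E8.5 MPs and 20.5 FPKM in E9.5 MPs, and 0 in trunk notochord at both stages. It made up 64.6% and 66.0% of the summed FPKM of the 7 ligands in NotoPs at E8.5 and E9.5, and 22.7% in E9.5 MPs. Both NotoP values thus lay above all other embryonic values of the gene, which held for 1 of the 10 genes and for 7.61% of all genes tested. Cultured cells had 36.6 FPKM of *Fgf8* in NMPdiff, 17.0 in NotoPdiff and 17.6 in MPdiff cells.

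A value of 0 carries different weight in different libraries. Of the 2221 genes within 2-fold of the *Fgf8* level in E8.5 NotoPs, 10 (0.450%) were listed at 0 in E8.5 trunk notochord, and of the 2100 within 2-fold of its level in E9.5 NotoPs, 27 (1.29%) were listed at 0 in E9.5 trunk notochord. For the E8.5 MP library, 87 of the 3882 genes (2.24%) within 2-fold of the *Fgf8* level in E9.5 MPs were at 0. Zeros at such a level were therefore uncommon in all 3 libraries. They were more frequent at lower levels, with 7.07% and 3.39% of like genes at 0 in trunk notochord at E8.5 and E9.5 for *Fgf17*, and 3.82% and 8.63% for *Fgf15*.

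*Fgf17*, a member of the Fgf8 subfamily, was present in caudal cells of both kinds. It stood at 6.15 and 15.7 FPKM in NotoPs at E8.5 and E9.5, at 3.08 and 16.0 FPKM in MPs, and was listed at 0 in both trunk notochord libraries. The E9.5 NotoP and MP values were nearly equal (1.02-fold apart), whereas those of *Fgf8* were 2.65-fold apart in the same libraries. NMPdiff cells had 2.51 FPKM, and NotoPdiff and MPdiff cells 0.750 and 0.825 FPKM.

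*Fgf18*, the remaining member of the subfamily, was distributed differently. It was listed at 0 in E8.5 NotoPs and stood at 2.51 FPKM in E9.5 NotoPs, at 13.3 and 2.68 FPKM in MPs, and at 2.86 and 3.09 FPKM in trunk notochord. Alone among the 7 ligands, it was above 0 in trunk notochord at E9.5. Its highest value came from the E8.5 MP library, and the other 4 non-zero embryonic values lay between 2.51 and 3.09 FPKM. In culture it was 0.559 FPKM in NMPdiff and 1.23 FPKM in NotoPdiff cells, and it was listed at 0 in MPdiff cells.

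*Fgf3*, *Fgf4* and *Fgf15* lie beside each other on chromosome 7, with gene starts that span 58.4 kb, and all 3 were highest in E9.5 MPs. *Fgf3*, known for roles in the inner ear and tail, had 6.32 and 2.70 FPKM in NotoPs, 0 and 24.5 FPKM in MPs, and 3.68 and 0 FPKM in trunk notochord at E8.5 and E9.5. *Fgf15*, the mouse counterpart of human FGF19, had 10.4 and 7.13 FPKM in NotoPs against 5.74 and 23.8 FPKM in MPs, and was listed at 0 in trunk notochord at both stages. *Fgf4*, which acts with *Fgf8* in presomitic mesoderm, was above 0 in only 1 of 6 embryonic libraries, E9.5 MPs, at 3.02 FPKM.

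The cultured cells kept all 3 genes of this cluster at low levels. *Fgf3* was at 1.77 FPKM in NMPdiff, 0.489 in NotoPdiff and 2.37 in MPdiff cells, and *Fgf15* at 1.45, 1.91 and 4.40 FPKM. *Fgf4* was at 1.02, 2.51 and 2.22 FPKM in the same order. The zeros of *Fgf4* say little about E8.5 MPs, since 31.0% of the 2942 genes within 2-fold of its E9.5 level were at 0 there, compared with 1.78% of the 3646 genes near the E9.5 level of *Fgf3*.

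*Fgf5*, a marker of the epiblast before and during gastrulation, was mainly a gene of the day 3 culture. It reached 60.2 FPKM in NMPdiff cells, against 7.77 FPKM in NotoPdiff and 0.761 FPKM in MPdiff cells. In embryos it was 5.89 FPKM in E8.5 NotoPs and 3.67 FPKM in E8.5 trunk notochord, and was listed at 0 in the other 4 libraries. Both embryonic values above 0 came from E8.5 cells sorted for T, Noto and Foxa2.

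Unlike the ligands, the 3 feedback genes were above 0 in every library. *Spry2*, a Sprouty inhibitor, was 21.7 and 13.0 FPKM in NotoPs, 12.4 and 30.7 FPKM in MPs, and 9.48 and 3.42 FPKM in trunk notochord at E8.5 and E9.5. *Spry4*, another Sprouty gene, was 6.78 and 15.3 FPKM in NotoPs, 14.7 and 44.0 FPKM in MPs, and 0.479 and 1.55 FPKM in trunk notochord. *Dusp6*, the Erk phosphatase, was 39.8 and 61.7 FPKM in NotoPs, 63.1 and 80.9 FPKM in MPs, and 14.2 and 16.1 FPKM in trunk notochord. For each of these genes the embryonic values of trunk notochord were the lowest and did not overlap with those of NotoPs or MPs, and E9.5 MPs had the highest. Trunk notochord values below all others were found for 5 of the 10 genes (also *Fgf17* and *Fgf15*) and for 8.05% of all genes tested.

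All 3 feedback genes had a higher value in NMPdiff cells than in the day 4 cultures. *Spry2* was 37.3 FPKM in NMPdiff, 17.4 in NotoPdiff and 24.0 in MPdiff cells. *Spry4* was 31.3, 12.2 and 8.72 FPKM, and *Dusp6* 114, 23.1 and 14.3 FPKM, in the same order. Over the 9 libraries, *Dusp6* and *Spry2* were highest in NMPdiff cells, and *Spry4* in E9.5 MPs.

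**Figure D1:**
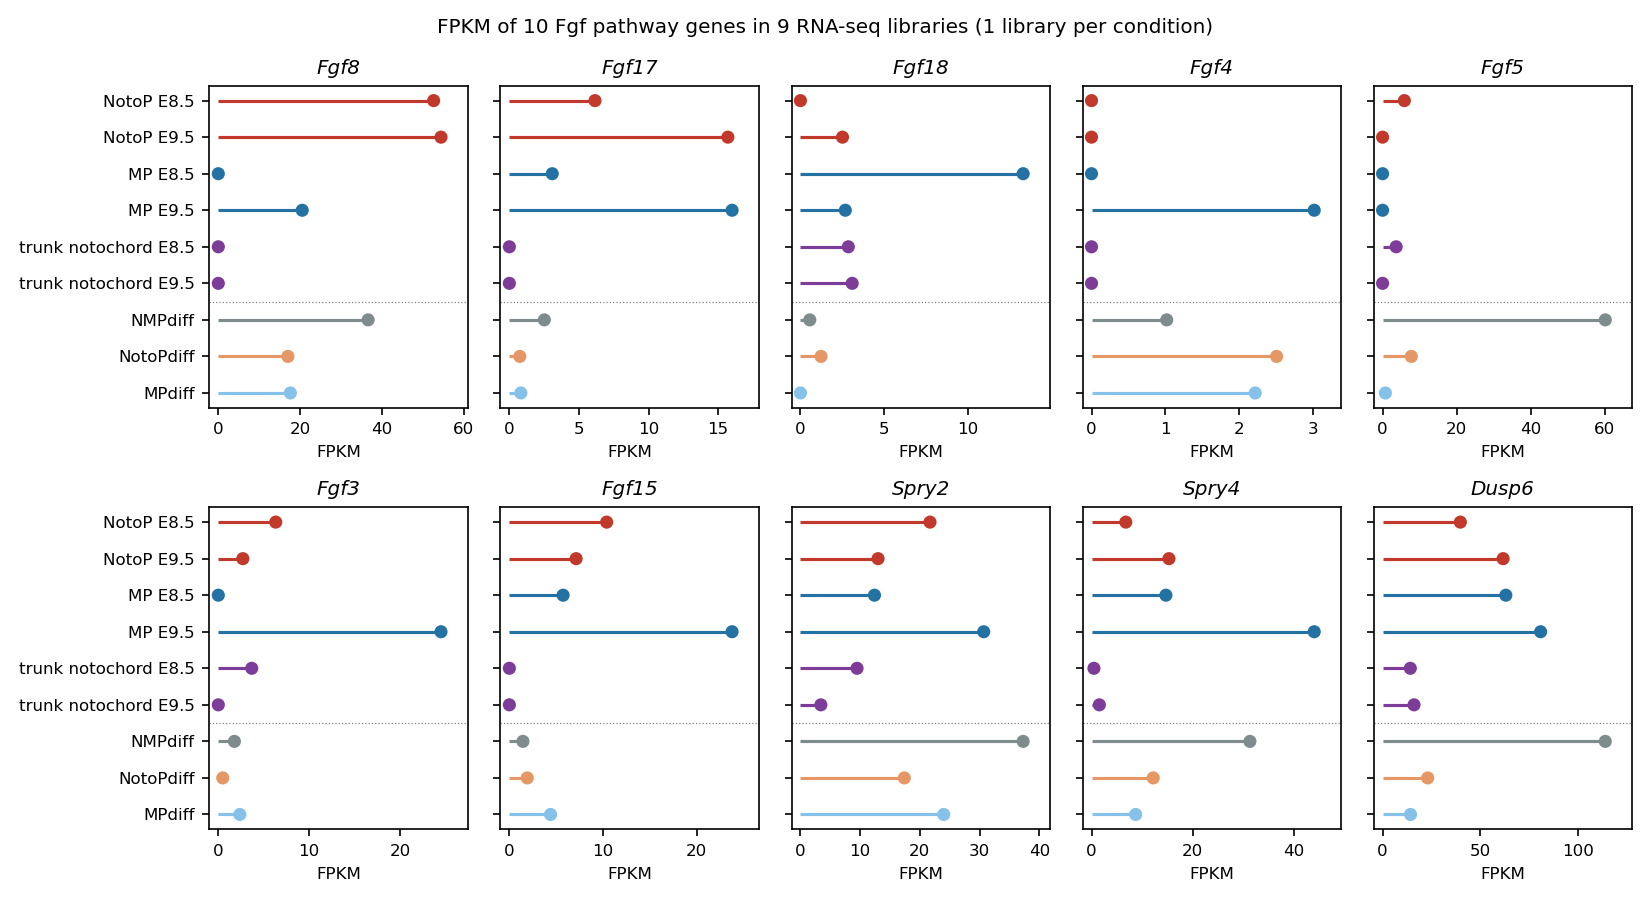
FPKM (horizontal axis, linear, scaled for each gene) of the 7 ligands and 3 feedback genes in each of the 9 RNA-seq libraries, 1 point per library; the dotted line separates embryonic from cultured cells. *Fgf8* stands at 52.6 and 54.4 FPKM in NotoPs and at 0 in trunk notochord, and *Fgf5* at 60.2 FPKM in NMPdiff cells.

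Summed over genes, ligands and feedback genes ranked the libraries in the same order except for E8.5 MPs, the embryonic library from the fewest cells. The 7 ligands summed to 81.4 and 82.4 FPKM in NotoPs at E8.5 and E9.5, to 22.1 and 90.5 FPKM in MPs, and to 10.2 and 3.09 FPKM in trunk notochord. The 3 feedback genes summed to 68.3 and 90.0 FPKM in NotoPs, to 90.2 and 156 FPKM in MPs, and to 24.1 and 21.1 FPKM in trunk notochord. E8.5 MPs, in which 4 of the 7 ligands were listed at 0, thus had a feedback sum close to that of E9.5 NotoPs. In the cultures the ligand sum was 104 FPKM in NMPdiff, 31.6 in NotoPdiff and 28.1 in MPdiff cells, beside feedback sums of 183, 52.7 and 47.0 FPKM.

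**Figure D2:**
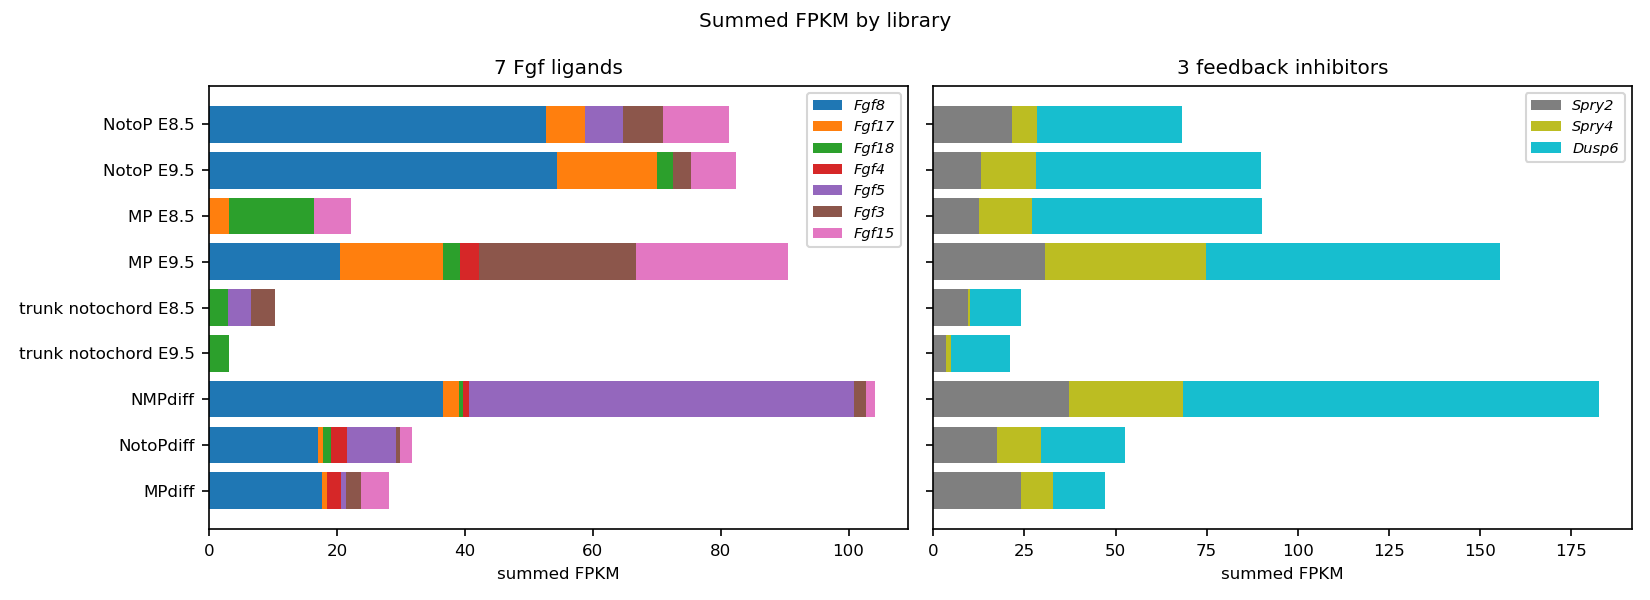
Summed FPKM (horizontal axes, which differ between panels and start at 0) of the 7 ligands (left) and the 3 feedback genes (right) in the 9 libraries, with bars split by gene. Trunk notochord has the shortest bars on both sides, with ligand sums of 10.2 and 3.09 FPKM and feedback sums of 24.1 and 21.1 FPKM.

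Trunk notochord was compared with NotoPs to ask which Fgf genes distinguish caudal progenitors from the notochord they give rise to. *Fgf8*, *Fgf17*, *Fgf15* and *Spry4* were lower in trunk notochord at both stages (4 of 10 genes, where 1.65% of all genes tested were lower), and 0 of 10 were higher (1.47%). The 3 ligands were listed at 0 in trunk notochord, so no fold is given, and *Spry4* was 14.1-fold lower at E8.5 and 9.84-fold lower at E9.5 as a ratio of FPKM. The 10 genes had a median log2 ratio of (FPKM + 1), averaged over both stages, of -1.52, against 0.00 for all genes tested.

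Considered alone, E9.5 added *Fgf3*, *Spry2* and *Dusp6*, giving 7 of 10 genes lower (8.61% of all genes) and 0 of 10 higher (7.22%). *Spry2* was 3.79-fold and *Dusp6* 3.82-fold lower at this stage, and at E8.5 they were 2.29-fold and 2.81-fold lower, short of the threshold. The *Fgf3* call rests on 2.70 FPKM against a value listed at 0, and 23.4% of genes of like level were at 0 in E9.5 trunk notochord. At E8.5 the lower genes were the same 4 as at both stages (6.94% of all genes), and *Fgf18* was higher in trunk notochord (1 of 10, with 7.63% of all genes higher). The value behind that *Fgf18* call was 2.86 FPKM against a NotoP value listed at 0, and 11.0% of the genes of like level in E9.5 NotoPs were at 0 in E8.5 NotoPs.

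Markers of other caudal cells moved in the same comparison. The 6 presomitic mesoderm markers (*Tbx6*, *Msgn1*, *Dll1*, *Rspo3*, *Hes7* and *Mesp2*) summed to 336 and 272 FPKM in NotoPs and to 5.60 and 0 FPKM in trunk notochord, with *Tbx6*, *Msgn1* and *Hes7* at 0 in both trunk libraries and 5 of 6 lower at both stages. The 6 neuromesodermal markers summed to 268 and 210 FPKM in NotoPs and to 28.9 and 19.3 FPKM in trunk notochord, with 4 of 6 lower. The sum of the gut endoderm markers went the other way, from 54.6 and 24.4 FPKM in NotoPs to 93.1 and 158 FPKM in trunk notochord. Of these markers, 3 of 6 (*Ttr*, *Afp* and *Apoa1*) were higher at both stages, and the others did not move alike. At E8.5, *Cldn6* was 47.0 FPKM in NotoPs and 29.2 in trunk notochord, *Sox17* 3.58 and 0, and *Trh* 4.09 and 19.1 FPKM. In MPs, the presomitic markers summed to 195 and 474 FPKM and the neuromesodermal markers to 250 and 216 FPKM at E8.5 and E9.5. Of these presomitic and neuromesodermal markers, *Cdx4* alone passed 3-fold between NotoPs and MPs at both stages, being lower in NotoPs. The part of other caudal or gut cells in the Fgf values was not tested.

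Between NotoPs and MPs, the 2 caudal populations, the rule for both stages gave 0 of 10 higher in NotoPs (2.18% of all genes) and 0 of 10 lower (0.396%). Few genes of any kind passed this rule, so these counts say little about the 10 genes. At a 2-fold threshold, *Fgf8* was higher and *Spry4* lower in NotoPs at both stages. The median log2 ratio over both stages was -0.32 for the 10 genes and 0.07 for all genes. Each stage taken alone gave calls, but not for the same ligands. At E8.5, *Fgf8*, *Fgf5* and *Fgf3* were higher in NotoPs (3 of 10, with 14.7% of all genes) and *Fgf18* was lower (1 of 10, with 6.69%), and in each of the 4 cases the other library was listed at 0.

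At E9.5, 0 of 10 genes were higher in NotoPs (4.38% of all genes), and *Fgf3*, *Fgf4* and *Fgf15* were lower (3 of 10, with 1.85%). *Fgf3* was 9.09-fold and *Fgf15* 3.34-fold lower in NotoPs as ratios of FPKM, and *Fgf4* was listed at 0 there. The 3 lower genes are the chromosome 7 cluster. *Fgf8* was 2.65-fold higher in E9.5 NotoPs, and *Spry2* and *Spry4* were 2.37-fold and 2.88-fold lower, all short of 3-fold.

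Within cell types, MPs had the most calls between stages. *Fgf8*, *Fgf17*, *Fgf4*, *Fgf3* and *Fgf15* were higher at E9.5 than at E8.5 in MPs (5 of 10, with 10.0% of all genes), and *Fgf18* was lower (1 of 10, with 5.38%). *Fgf17* was 5.20-fold and *Fgf15* 4.14-fold higher as ratios of FPKM, *Fgf18* was 4.97-fold lower, and the other 3 genes were listed at 0 at E8.5. Of the gut markers, *Afp* was at 62.2 FPKM in E8.5 MPs and at 0 in E9.5 MPs, and the share of all genes listed at 0 was 58.1% at E8.5 and 44.7% at E9.5. The part of these differences between the libraries in the Fgf values was not tested.

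NotoPs were steadier, with *Fgf18* higher at E9.5 (1 of 10, with 3.83% of all genes) and *Fgf5* lower (1 of 10, with 3.31%). *Fgf8* differed 1.03-fold between the NotoP stages. In trunk notochord, *Fgf5* and *Fgf3* were lower at E9.5 (2 of 10, with 9.65% of all genes) and 0 of 10 were higher (7.14%). Both are listed at 0 in E9.5 trunk notochord, and their E8.5 values were 3.67 and 3.68 FPKM.

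**Figure D3:**
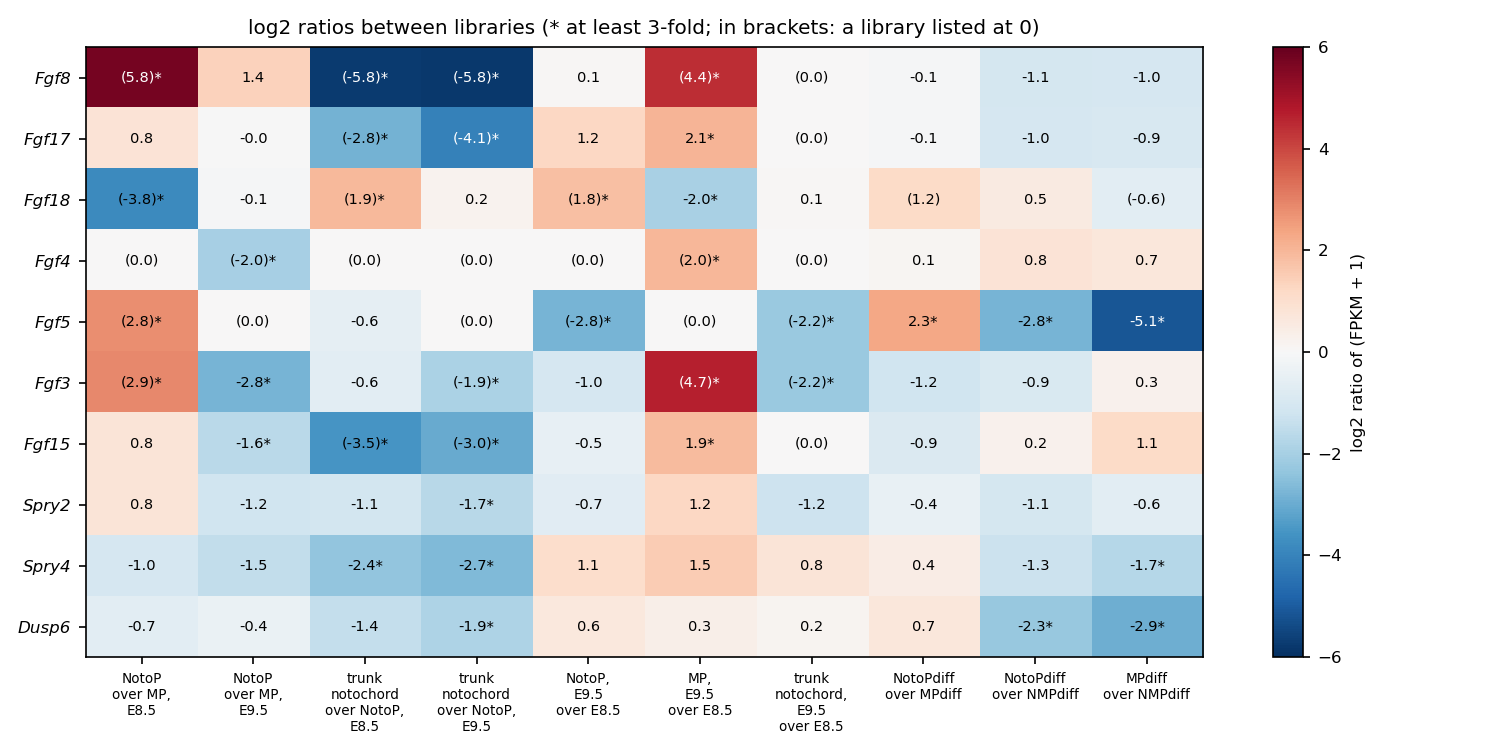
Log2 ratio of (FPKM + 1) of each of the 10 genes (rows) in 10 pairs of libraries (columns), blue where lower and red where higher in the library named first, with an asterisk at 3-fold or more and brackets where 1 or both libraries are listed at 0, so that the value depends on the added 1. The columns of trunk notochord over NotoP are mostly blue, and that of NotoPdiff over MPdiff has 1 asterisk, at *Fgf5*.

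In culture, NotoPdiff and MPdiff cells, which differ by doxycycline-induced Foxa2 and by the sort for Noto, differed at least 3-fold in 1 of these genes. *Fgf5* was 10.2-fold higher in NotoPdiff cells (1 of 10, with 2.58% of all genes higher), and 0 of 10 were lower (0.736%). *Fgf8* was 1.04-fold, *Fgf17* 1.10-fold and *Fgf4* 1.13-fold apart, while the feedback genes were 1.38-fold (*Spry2*), 1.40-fold (*Spry4*) and 1.62-fold (*Dusp6*) apart, *Spry2* being lower in NotoPdiff cells. Among the weakly expressed ligands, *Fgf3* was 4.84-fold and *Fgf15* 2.30-fold lower in NotoPdiff cells as ratios of FPKM, and *Fgf18* was 1.23 FPKM against a value listed at 0. *Fgf3* and *Fgf18* passed 3-fold when 0.1 was added in place of 1. The median log2 ratio of the 10 genes was 0.04, beside 0.03 for all genes.

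Day 3 and day 4 cultures differed more. *Fgf5* and *Dusp6* were lower in NotoPdiff than in NMPdiff cells (2 of 10, with 1.33% of all genes), by 7.75-fold and 4.95-fold, and 0 of 10 were higher (2.18%). *Fgf5*, *Spry4* and *Dusp6* were lower in MPdiff than in NMPdiff cells (3 of 10, with 2.46%), by 79.2-fold, 3.59-fold and 8.00-fold, and 0 of 10 were higher (1.50%). *Fgf8* was 2.15-fold lower in NotoPdiff and 2.08-fold lower in MPdiff cells.

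These 2 comparisons share the NMPdiff library. NMPdiff cells were taken while bFGF was in the medium, the day 4 cells after a further day, and the part of this medium change in the feedback genes cannot be told apart from that of the day. From day 3 to day 4, epiblast and pluripotency markers moved with *Fgf5*, and 5 of 6 were lower in both day 4 cultures. The 6 genes summed to 331 FPKM in NMPdiff, 14.9 in NotoPdiff and 15.8 FPKM in MPdiff cells. Between NotoPdiff and MPdiff cells, where *Fgf5* was 10.2-fold apart, 0 of the 6 were higher and 0 were lower. *Pou5f1* alone was 269, 10.7 and 13.1 FPKM, and the part of such cells in the *Fgf5* values was not tested.

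The other genes of the pathway were taken from lists of ligands, receptors, inhibitors, targets, Ras-Erk transducers and heparan sulfate genes. Of the 3 other secreted ligands that could be tested, *Fgf9* was higher in trunk notochord than in NotoPs at both stages. It stood at 6.15 and 6.22 FPKM in NotoPs, 22.6 and 8.51 FPKM in MPs, and 30.3 and 165 FPKM in trunk notochord. In the library where the 7 ligands summed to 3.09 FPKM, *Fgf9* thus exceeded all 7 together. *Fgf20* was at 7.67 FPKM in E8.5 NotoPs, 0.436 in E9.5 NotoPs and at 0 in the other embryonic libraries, and *Fgf10* differed at least 3-fold only between the cultures, being lower in NotoPdiff (0.799 FPKM) than in MPdiff cells (6.26 FPKM). *Fgf1* stayed between 0 and 0.724 FPKM in all 9 libraries.

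Of the receptor genes, *Fgfr2* and *Fgfr3* had higher levels in trunk notochord. *Fgfr1*, the main receptor of early mesoderm, varied little, from 21.8 to 37.0 FPKM over all 9 libraries. *Fgfr2* was 1.75 and 0.530 FPKM in NotoPs, 2.14 and 4.40 FPKM in MPs, and 17.6 and 13.6 FPKM in trunk notochord. *Fgfr3* was 0.952 and 0.325 FPKM in NotoPs, 0 and 0.568 FPKM in MPs, and 14.2 and 8.40 FPKM in trunk notochord. Of 8 receptor and co-receptor genes tested, these 2 were higher in trunk notochord at both stages (1.47% of all genes) and 0 were lower (1.65%), with a median log2 ratio of 0.98.

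*Flrt3*, a membrane protein that promotes Fgf signalling, was 48.9 and 33.8 FPKM in NotoPs against 5.21 and 19.9 FPKM in MPs, at least 3-fold higher at E8.5 alone. It was also higher in NotoPdiff cells (46.6 FPKM) than in MPdiff (11.4 FPKM) and NMPdiff cells (10.6 FPKM). Its relative *Flrt1* stayed at or below 0.804 FPKM.

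Among 10 other feedback inhibitors tested, *Il17rd* (Sef), a membrane inhibitor of the receptors, was the one that was lower in trunk notochord at both stages (1.65% of all genes). It stood at 61.6 and 51.7 FPKM in NotoPs, 7.89 and 38.1 FPKM in MPs, and 4.82 and 5.21 FPKM in trunk notochord. Of the phosphatase genes, *Dusp7* was at 12.3 and 11.2 FPKM in NotoPs against 2.42 and 6.69 FPKM in MPs, and *Dusp5* ranged from 0 to 11.4 FPKM with no constant direction. *Dusp14* was above 0 in only 1 embryonic library, E9.5 MPs (2.85 FPKM).

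Of 6 transcriptional targets, *Etv4* and *Etv5* were lower in trunk notochord at both stages (1.65% of all genes) and 0 were higher (1.47%). *Etv4* was 21.0 and 17.9 FPKM in NotoPs, 16.7 and 16.2 FPKM in MPs, and 1.88 and 0 FPKM in trunk notochord, and *Etv5* was 28.9 and 20.6, 17.7 and 29.8, and 7.48 and 3.11 FPKM. Their relative *Etv1* was lower in trunk notochord at E9.5 alone (2.65 FPKM in NotoPs and 0 in trunk notochord). The immediate early genes *Egr1* and *Fos* went the other way at E9.5, with 0.419 and 1.54 FPKM in NotoPs against 19.3 and 9.08 FPKM in trunk notochord, while *Ier2* was lower, at 44.9 and 10.9 FPKM.

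The transducers between receptor and Erk hardly moved. In trunk notochord against NotoPs at both stages, 0 of 19 were higher and 0 were lower, and NotoPs against MPs gave 0 and 0 as well. At E8.5 alone, *Shc1* (23.6 FPKM in NotoPs, 4.93 in MPs) and *Hras* (11.2 and 2.54 FPKM) were higher in NotoPs. *Gab1* ranged from 5.34 to 22.2 FPKM over the 9 libraries.

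Heparan sulfate genes contributed the only pathway gene that separated NotoPs from MPs at both stages. *Sdc4*, a cell-surface proteoglycan, was 17.6 and 8.64 FPKM in NotoPs against 0 and 0.558 FPKM in MPs (1 of 18 genes tested, with 2.18% of all genes higher). *Sulf1*, an enzyme that removes sulfate from heparan sulfate, was 192 and 143 FPKM in NotoPs, 22.9 and 93.1 FPKM in MPs, and 201 and 141 FPKM in trunk notochord. *Gpc3*, a glypican, was 795 and 1180 FPKM in NotoPs against 364 and 531 FPKM in MPs, and in culture 68.8 FPKM in NMPdiff, 273 in NotoPdiff and 512 FPKM in MPdiff cells. *Gpc4* had 7.71 and 5.54 FPKM in NotoPs against 0 and 13.0 FPKM in MPs.

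**Figure D4:**
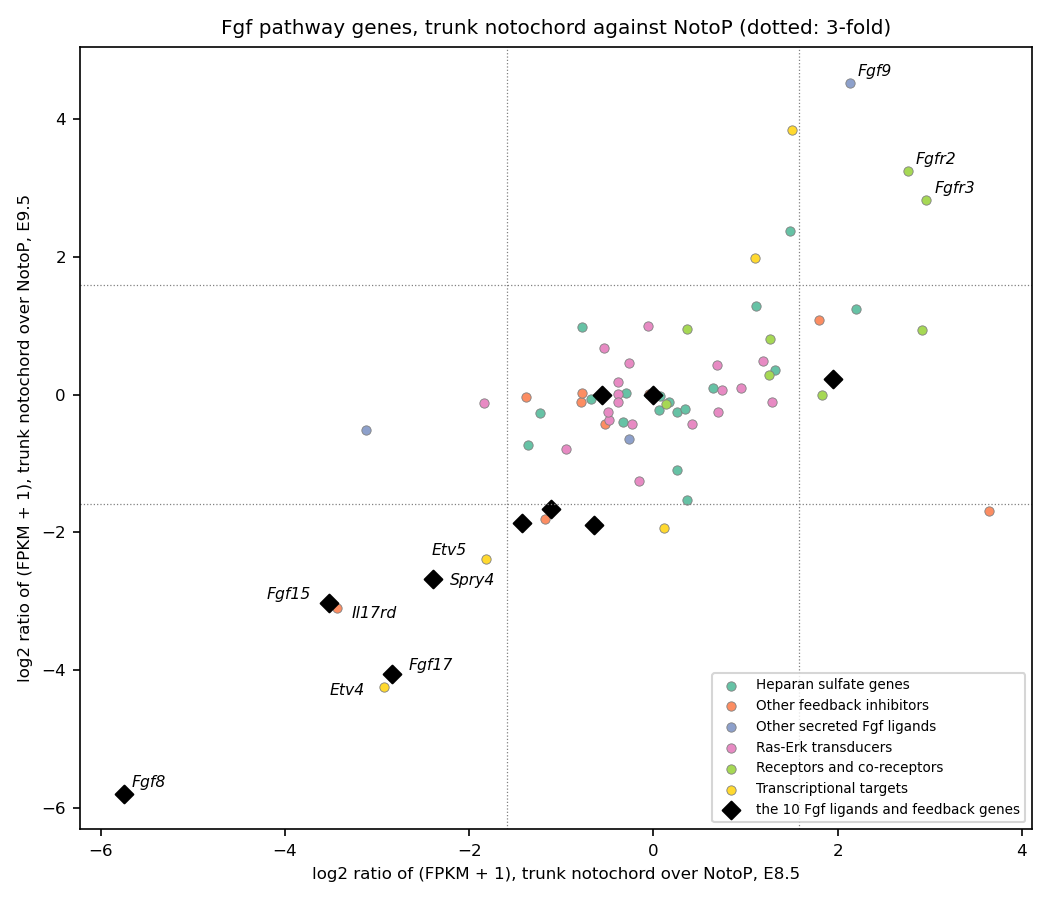
Log2 ratio of (FPKM + 1) of trunk notochord over NotoP at E8.5 (horizontal) and E9.5 (vertical) for the pathway genes tested, coloured by list, with black diamonds for the 7 ligands and 3 feedback genes and dotted lines at 3-fold. Names mark genes past 3-fold at both stages: *Fgf8*, *Fgf17*, *Fgf15*, *Spry4*, *Il17rd*, *Etv4* and *Etv5* at the lower left, and *Fgf9*, *Fgfr2* and *Fgfr3* at the upper right.

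The genes whose levels followed each member most closely were sought among the 10942 genes that reached 5 FPKM in a library, which leaves out *Fgf4*, by Pearson's correlation of log2(FPKM + 1) over the 9 libraries. These libraries differ in cell type, depth and instrument, so the values are descriptions. For *Fgf8* the closest were *Acn9* (0.968), the inhibitor *Il17rd* (0.963) and *Mgmt* (0.960). For *Fgf15* they were *Lfng* (0.973), a Notch modifier that cycles in presomitic mesoderm, *Nkd2* (0.970), an inhibitor of Wnt signalling, and *F2r* (0.955). *Spry4* was followed by *Msgn1* (0.952), a presomitic transcription factor, and *Fgf17* by *Notch4* (0.967).

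*Fgf5* was followed by *Rbm47* (0.964), *Fgf18* by *Ivd* (0.953), *Spry2* by *Ung* (0.960) and *Fgf3* by *Gsto1* (0.913), while the closest match of *Dusp6*, *Atp5l*, reached 0.857. Among the 10 genes themselves, *Fgf17* and *Fgf15* (0.88) and *Spry4* and *Dusp6* (0.82) were the most alike, and *Fgf8* and *Fgf18* (-0.69) the least. *Fgf8* correlated at 0.73 with *Spry2*, 0.63 with *Spry4* and 0.45 with *Dusp6*.

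T and Foxa2 binding was mapped by ChIP-seq in NotoPdiff cultures that were crosslinked without sorting, with 1 library per factor, so the peaks come from all cells of the dish. The peak lists hold 6875 T peaks with a median fold enrichment of 7.45 and 22684 Foxa2 peaks with a median of 7.19. A T peak summit lay within 100 kb of the start of 8 of the 10 genes, compared with 49.8% of the 13691 tested genes that could be placed, and a Foxa2 summit within 100 kb of 10 of 10 (80.2%). A T peak that overlapped a Foxa2 peak was found for *Fgf5* and *Fgf15* (2 of 10, with 10.5% of genes). Because *Fgf3*, *Fgf4* and *Fgf15* share most of their peaks, the 10 genes stand for 8 loci, of which 6 had a T peak and 8 a Foxa2 peak, with 14 different T and 21 different Foxa2 peaks in all. No T peak lay within 100 kb of *Fgf17* or *Spry4*, whose nearest were 109 kb and 102 kb upstream.

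*Fgf8* (chr19:45736798-45742915, minus strand, GRCm38) had the strongest T peak near any of these genes. It lay 19.9 kb downstream of the gene start, in intergenic sequence past the end of the gene (chr19:45722721-45723357), with a fold enrichment of 28.7 and a -log10 q of 477. This peak ranked 4 among the 6875 T peaks by fold enrichment. Another T peak lay 9.46 kb downstream (fold enrichment 12.9), and the nearest Foxa2 peak 2.72 kb upstream (chr19:45745429-45745874, fold enrichment 14.8), a value exceeded by 5.56% of Foxa2 peaks. The other Foxa2 peaks lay 84.4 kb upstream, in an intron of *Armh3*, and 93.3 kb downstream, in an intron of *Fbxw4*. None of the T and Foxa2 peaks near *Fgf8* overlapped.

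The windows around those summits are shown because they hold the strongest T peak, the Foxa2 peak closest to the start of a ligand gene, and the only forkhead match near *Fgf8*. Each is 101 bases of the GRCm38 reference, plus strand, centred on the summit, and capitals mark a match to AGGTGTG (the T half-site) or TGTTTAC (a forkhead motif) on either strand, which do not overlap each other.
*Fgf8*, T peak 19.9 kb downstream (chr19:45723003-45723103): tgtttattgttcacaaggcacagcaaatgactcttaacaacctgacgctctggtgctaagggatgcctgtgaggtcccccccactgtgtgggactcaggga
*Fgf8*, Foxa2 peak 2.72 kb upstream (chr19:45745583-45745683): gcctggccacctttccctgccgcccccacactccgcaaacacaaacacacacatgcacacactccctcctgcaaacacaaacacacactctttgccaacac
*Fgf8*, Foxa2 peak 84.4 kb upstream (chr19:45827278-45827378): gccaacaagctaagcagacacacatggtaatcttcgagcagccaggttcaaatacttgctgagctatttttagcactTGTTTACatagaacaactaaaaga

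The other members of the Fgf8 subfamily differed from it in their peaks. *Fgf18* (chr11:33117430-33147400, minus strand) had 3 T peaks, 19.1 kb upstream and 39.7 and 68.6 kb downstream, with fold enrichments of 6.39, 11.5 and 5.30. Its 2 Foxa2 peaks lay 62.1 and 63.4 kb downstream with fold enrichments of 15.2 and 7.78, and neither overlapped a T peak. *Fgf17* (chr14:70636203-70642268, minus strand) had 1 Foxa2 peak 70.8 kb upstream with a fold enrichment of 4.54, which 88.3% of Foxa2 peaks exceeded.

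The chromosome 7 cluster of *Fgf3* (144838083-144844436), *Fgf4* (144847367-144865243) and *Fgf15* (144896531-144900953), all on the plus strand, shared a pair of T peaks. One lay between *Fgf4* and *Fgf15*, 11.5 kb upstream of *Fgf15* (chr7:144884783-144885558, fold enrichment 10.7), with a Foxa2 peak of 5.60 fold beside it, 10.4 kb upstream of the gene. The other lay 34.4 kb upstream of *Fgf3* with a fold enrichment of 5.53. Both T peaks hold a T half-site, and both are printed here with the half-site peak of *Fgf18* because these are the 3 T peaks with that match. Distances of *Fgf4* use the outermost GENCODE start, and the RefSeq start lies 14.0 kb further downstream.
*Fgf15*, T peak 11.5 kb upstream (chr7:144884984-144885084): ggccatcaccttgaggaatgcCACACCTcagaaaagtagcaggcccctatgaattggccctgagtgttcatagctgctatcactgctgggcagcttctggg
*Fgf3*, T peak 34.4 kb upstream (chr7:144803642-144803742): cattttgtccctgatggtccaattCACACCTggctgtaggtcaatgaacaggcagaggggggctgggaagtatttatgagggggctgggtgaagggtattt
*Fgf18*, T peak 68.6 kb downstream (chr11:33078713-33078813): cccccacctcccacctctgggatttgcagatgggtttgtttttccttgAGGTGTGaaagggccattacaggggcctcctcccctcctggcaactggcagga

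Peaks of T and Foxa2 coincided at 2 places. One lay 77.0 kb downstream of the *Fgf15* start, in intergenic sequence (-log10 q of 13.1 for T and 6.41 for Foxa2). The other lay 91.8 kb downstream of the start of *Fgf5* (chr5:98254184-98277030, plus strand), in an intron of *Cfap299*, with fold enrichments of 11.9 for T and 11.4 for Foxa2. *Fgf5* also had a Foxa2 peak within its own intron, 8.13 kb from its start, with a fold enrichment of 9.76 and a forkhead match. These windows are given because they are the shared sites and the only peak inside a ligand gene.
*Fgf15*, T peak overlapping Foxa2, 77.0 kb downstream (chr7:144973461-144973561): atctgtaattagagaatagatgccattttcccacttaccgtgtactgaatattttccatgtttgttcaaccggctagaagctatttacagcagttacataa
*Fgf5*, T peak overlapping Foxa2, 91.8 kb downstream (chr5:98345907-98346007): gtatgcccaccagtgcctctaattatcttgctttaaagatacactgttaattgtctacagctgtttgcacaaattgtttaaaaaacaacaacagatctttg
Fgf5, Foxa2 peak in its intron (chr5:98262262-98262362): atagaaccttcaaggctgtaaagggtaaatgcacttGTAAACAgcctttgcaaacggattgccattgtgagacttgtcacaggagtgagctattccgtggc

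Of the feedback genes, *Dusp6* (chr10:99263231-99267489, plus strand) had a T peak at its promoter. The summit lay 315 bp upstream of the gene start (chr10:99262653-99263156, fold enrichment 9.46), and 30.9% of T peaks had a higher value. Further T peaks lay 61.1 kb upstream (6.21) and 90.5 kb downstream (5.07), and Foxa2 peaks 56.4 and 93.4 kb downstream (7.08 and 4.20). The summit window is shown as the one promoter peak among the 6 genes with an entry in the RefSeq promoter table (*Fgf3*, *Fgf4*, *Fgf5*, *Fgf18*, *Spry2* and *Dusp6*). It holds neither motif, which says only that these letters are absent from it.
Dusp6, T peak 315 bp upstream (chr10:99262866-99262966): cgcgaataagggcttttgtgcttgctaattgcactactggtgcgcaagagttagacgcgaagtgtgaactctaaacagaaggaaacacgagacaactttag

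*Spry2* (chr14:105891947-105896819, minus strand) had T peaks 24.2 kb upstream and 80.9 kb downstream with fold enrichments of 6.72 and 8.55, and 3 Foxa2 peaks with 4.96 to 6.30. A Foxa2 summit lay 25.7 kb upstream, next to the upstream T summit, without overlap of the peaks. *Spry4* (chr18:38586247-38601415, minus strand) had 3 Foxa2 peaks. The strongest, with a fold enrichment of 11.0, lay within an untranslated region of *Spry4* itself, 14.1 kb downstream of its start, and another lay 2.63 kb upstream with 4.23.

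**Figure D5:**
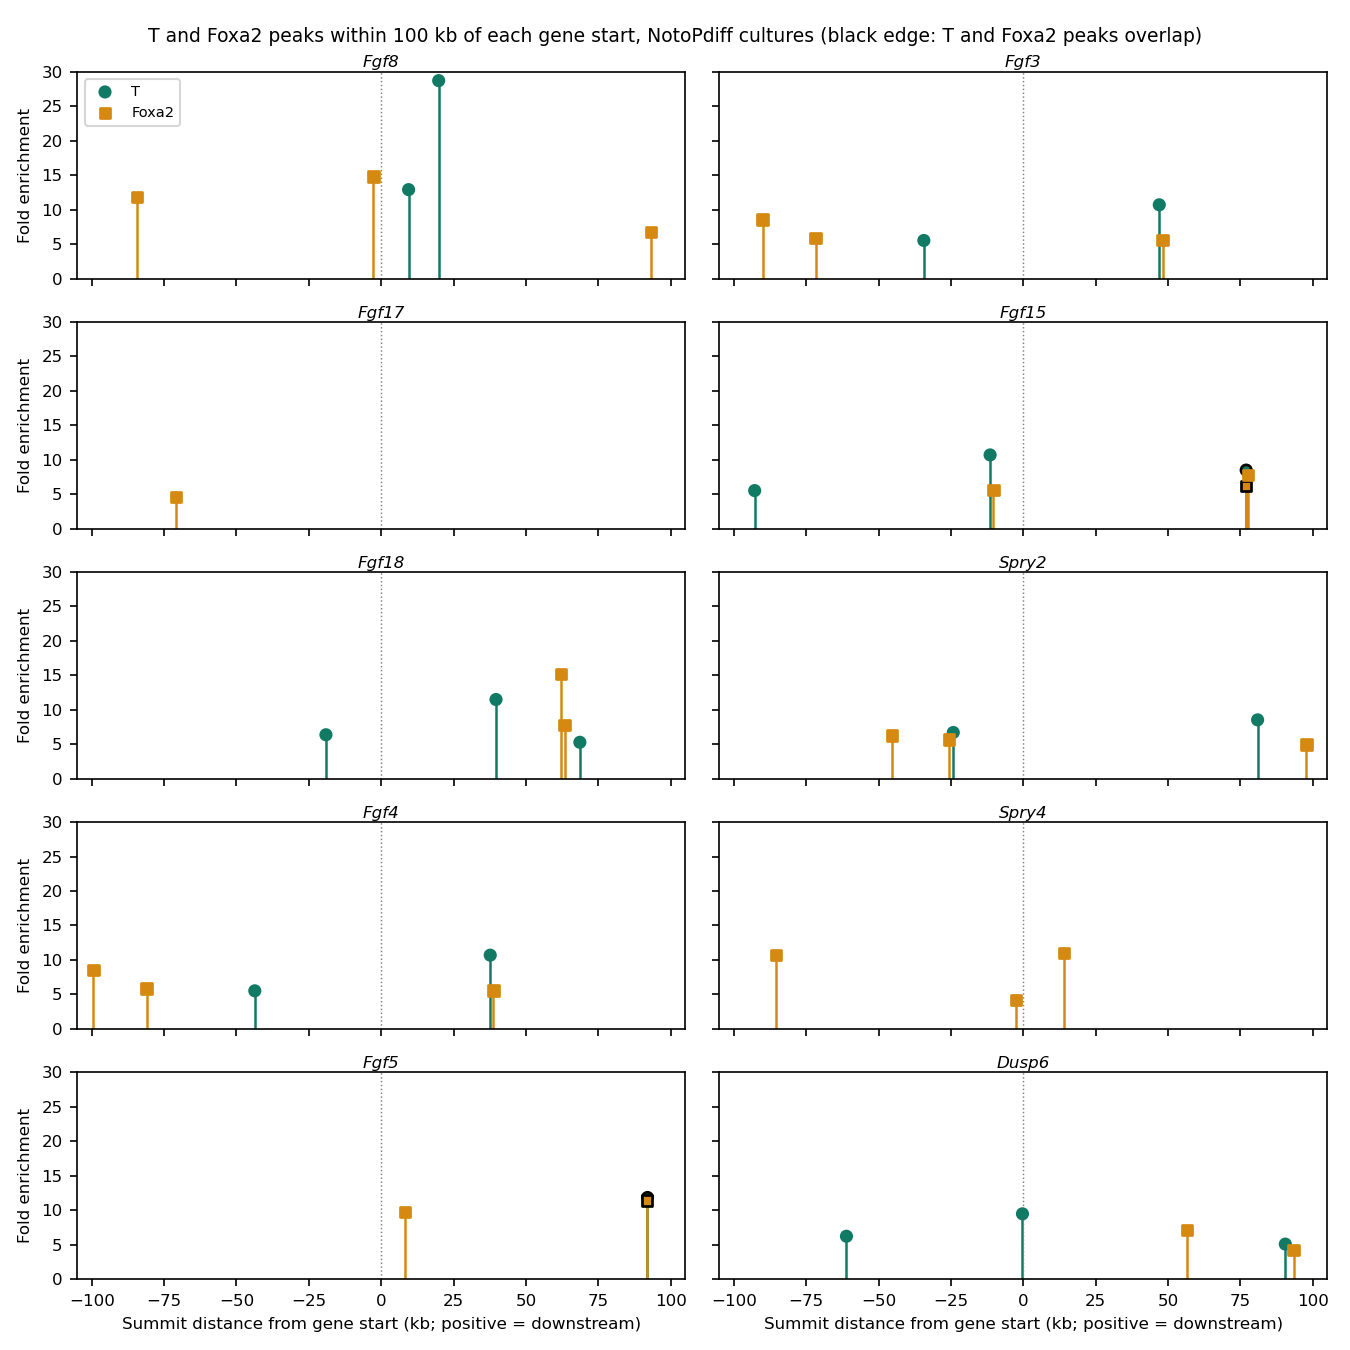
Fold enrichment (vertical, linear) of T peaks (circles) and Foxa2 peaks (squares) from NotoPdiff cultures against the distance of the summit from the gene start in kb (horizontal, positive downstream), 1 panel per gene. The T peak of *Fgf8* at 19.9 kb reaches 28.7, the *Dusp6* T peak stands at the gene start, and black edges mark the overlapping peaks of *Fgf5* and *Fgf15*.

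Across the T peaks near these genes, the T half-site was found in 3 of 14 windows (21.4%), and in 345 of 6871 windows (5.02%) over the whole T list. The forkhead motif was found in 2 of 21 Foxa2 windows (9.52%), and in 9.74% of 22680 over the whole Foxa2 list. The forkhead motif was in 0 of the 14 T windows, beside 6.88% over the whole T list. The T half-site was in 0 of the 21 Foxa2 windows, beside 3.92% over the whole Foxa2 list. In the 6 RefSeq promoters (250 bases before to 50 after the start) there were 0 matches to either motif, beside 5.84% of 32851 promoters with the T half-site and 3.65% with the forkhead motif.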

How the data were processed

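The authors aligned RNA-seq reads to mm10 with TopHat2, removed duplicates by molecular identifiers, and deposited FPKM values estimated by Cufflinks for 23983 genes. All 9 columns were used and 0 were left out. The authors aligned ChIP-seq reads with Bowtie and ran MACS per library with a q-value limit of 0.1; their deposited lists give a fold enrichment, −log10 of p and q, a score and the summit. Of the 21 samples, the 10 ATAC-seq and histone libraries were not used here.

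Log2 ratios were formed after adding 1 to FPKM and called at 3-fold, the study's threshold. A peak was placed by its summit within 100 kb of a gene start (GENCODE M21, GRCm38), and peaks overlapping by at least 1 bp were shared. Motifs were searched on both strands within 50 bp of summits. Sequences are from the GRCm38 reference (RefSeq). The ratio rule was tested on simulated FPKM values. FPKM values hold no depth, and the read numbers that the study states for the embryonic libraries were used only for their order. One library per condition allows no test across replicates.

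The genes and lists were chosen with earlier results of these data known. Beside the 10 genes, the text names up to 4 genes per pathway list, those with the largest mean ratio of NotoP over MP in either direction, plus *Fgfr1*, *Fgfr2*, *Fgfr3*, *Etv4*, *Etv5* and *Il17rd*, and the best matches by correlation. One of 11 other inhibitors, *Spry3*, has no row in the table. Remaining names were picked with their values in view. Analyses used Python 3.11.15, pandas, numpy and pysam.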

Additional observations from a re-analysis of the deposited data

Results flagged for a closer look

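*Fgf3* took opposite directions in the same comparison at the 2 stages. Its log2 ratio of (FPKM + 1), NotoP over MP, was 2.87 at E8.5 (6.32 FPKM against a library listed at 0) and -2.79 at E9.5 (2.70 against 24.5 FPKM). With 1 library per group the difference was not tested, and the E8.5 value depends on the added 1.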

How the results depend on the processing

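No paired analysis was possible because every group has 1 library. For the same reason no library could be left out within a group. An added 5 FPKM in place of 1 left 1 gene (*Fgf8*) called between trunk notochord and NotoPs, 0 between NotoP stages, 2 between MP stages, 0 between trunk stages and 0 between NotoPdiff and MPdiff cells. An added 0.1 gave 3 genes for NotoPdiff against MPdiff and 4 for NotoPdiff against NMPdiff. A 2-fold threshold gave 2 genes for NotoP against MP (*Fgf8* higher, *Spry4* lower), 4 for NotoP stages, 3 for NotoPdiff against MPdiff, 6 for NotoPdiff and 5 for MPdiff against NMPdiff. A mean of at least 5 FPKM left 0 genes for NotoP stages, trunk stages and NotoPdiff against MPdiff. E8.5 alone and E9.5 alone, added after the data were seen, gave 4 and 3 genes for NotoP against MP, and E9.5 alone gave 7 for trunk notochord. Rescaling the libraries changed 0 of the counts.

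Over all genes, NotoP against MP gave 371 calls, 1109 with 0.1 and 91 with 5 added. At 2-fold it gave 1033, and at a mean of 5 FPKM 238. Trunk notochord against NotoP gave 449, 1231, 101, 1285 and 277 in the same order. Of the 14393 tested genes, the 2-fold threshold called 2827 for NotoP stages and 1412 for NotoPdiff against MPdiff. It called 1603 for NotoPdiff and 1454 for MPdiff against NMPdiff. With 5 added, 147 were called for NotoP stages, 483 for MP stages, 509 for trunk stages and 115 for NotoPdiff against MPdiff. With 0.1 added, 1648 were called for NotoPdiff against MPdiff and 1661 for NotoPdiff against NMPdiff. With peaks assigned to their nearest gene start only, T peaks remained for 4 of the 10 genes, Foxa2 peaks for 4 and shared peaks for 0. The shares of the 13691 tested genes that could be placed were 12.6%, 25.9% and 2.41%. Shared peaks were found for 0 of 10 genes within 50 kb (5.44% of placed genes) and 5 within 250 kb (23.5%). The other counts of genes with peaks stayed within 1.5 times. Of single log2 ratios, 29 of 100 moved with 0.1 and 32 of 100 with 5 added, and none changed its sign past 3-fold. The causes were not tested.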
